A study of Mus musculus with 6 samples.

Results

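The matrix metalloproteases (Mmp), the secreted proteases with thrombospondin motifs (Adamts) and the tissue inhibitors of metalloproteases (Timp) were followed in first molar tooth germs of 7-day-old mice lacking Gpr115. They were taken by symbol from the deposited normalized table: names beginning with Mmp, Adamts or Timp and a digit, without Mmp20, Mmp9 and the Adamtsl genes. This gave 34 genes among 20161 gene rows, made up of 13 Mmp, 17 Adamts and 4 Timp genes. Gpr115 (current symbol Adgrf4) is a receptor of the adhesion class of G protein-coupled receptors, and the study asked how its absence affects enamel formation. There were 3 libraries from Gpr115-/- mice (Gpr115-KO) and 3 from wild-type (WT) littermates, all of the C57BL/6 strain. Each library was made from total RNA of whole first molars, so the enamel epithelium and the dental mesenchyme were measured together. Fewer cells of a type and less RNA per cell cannot be told apart in such samples. The labels give neither the deleted part of the gene nor whether germs of several animals were pooled, and a p-value therefore speaks of the spread among libraries, which may be technical.

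Mmp and Adamts enzymes are zinc proteases that are made as inactive precursors and cut matrix proteins outside the cell or at its surface. Timp proteins block them by occupying the active site, and Timp3 in particular also inhibits several Adamts enzymes. In the tooth, Mmp20 trims enamel matrix proteins, while the enzymes followed here are better known from the remodelling of collagen and proteoglycan in dental mesenchyme, bone and vessels. All 30 protease genes encoded a zinc-binding site of 11 codons, with the histidines that hold the catalytic zinc at codons 1, 5 and 11. It was found by translating the longest annotated coding sequence of each gene. The glycine form of the site was present in 25 genes. An asparagine form was present in the other 5, which were Adamts1, Adamts4, Adamts9, Adamts15 and Adamts20, all of them proteoglycan-cutting enzymes. In each of the 13 Mmp genes the site lay within 1 exon, and in each of the 17 Adamts genes an intron interrupted it. The coding-strand sequences of 5 proteases whose expression is described below are shown to make this shared site and its variants visible, with the histidine codons in capitals.
Mmp14: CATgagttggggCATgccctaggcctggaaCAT
Mmp13: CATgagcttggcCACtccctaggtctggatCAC
Mmp24: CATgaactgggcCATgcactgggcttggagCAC
Adamts6: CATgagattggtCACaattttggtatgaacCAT
Adamts9: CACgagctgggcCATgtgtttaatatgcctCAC
On GRCm38 these stretches lie at chr14:54437627-54437659 (plus strand) for Mmp14, chr9:7276573-7276605 (plus strand) for Mmp13 and chr2:155807427-155807459 (plus strand) for Mmp24. With their intron they lie at chr13:104352847-104366809 (plus strand) for Adamts6 and chr6:92905285-92908493 (minus strand) for Adamts9. The intron holds 13930 bases in Adamts6 and 3176 bases in Adamts9.

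Library totals ran from 8317302 to 11122821 counts, and 1 count was worth 0.0904 to 0.113 CPM (counts per 1000000) after scaling by TMM, a factor that aligns the bulk of genes between libraries. On the scale of the deposited table a count of 0 in 1 library allows a level of up to 0.271 to 0.340 CPM, from counting error only. The targeted gene Adgrf4 had 39.1, 20.6 and 27.4 CPM in Gpr115-KO replicates 1 to 3, against 66.9, 62.3 and 67.3 CPM in WT replicates 1 to 3. The mean over Gpr115-KO libraries reached 44.3% of that over WT libraries, with a log2 fold change of −1.18 (SE 0.21, adjusted p = 0.0889 by edgeR). The tissue label was checked by markers: the secretory ameloblast list summed to 91967 to 202106 CPM in Gpr115-KO libraries and 107534 to 140669 CPM in WT libraries, and the odontoblast list to 39759 to 69332 CPM in Gpr115-KO and 35419 to 78755 CPM in WT.

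Levels of different genes were compared as CPM per kilobase of exon. Mmp14, the membrane-anchored enzyme that cleaves collagen at the cell surface and activates the Mmp2 precursor, stood first, with a mean of 24.4 CPM per kb over the 6 libraries. Timp1 followed at 21.0 CPM per kb and Mmp2, the gelatinase that digests denatured collagen and basement membrane, at 19.8 CPM per kb. These 3 genes made up 46.2% of the summed level of all 34. Mmp13, the main collagenase of rodent bone and cartilage, had 14.1 CPM per kb and Timp2 had 8.33 CPM per kb. The highest Adamts genes were Adamts10 (6.75 CPM per kb), Adamts2 (5.74 CPM per kb) and Adamts9 (3.89 CPM per kb). At the low end Adamts16 averaged 0.0253 CPM per kb and Adamts15 averaged 0.0450 CPM per kb. In none of the 33 pairs of neighbours in this order were the 6 libraries of one gene all above those of the next, so the order of neighbours is not resolved. With the longest transcript or the coding length in place of all exons, Timp1, Mmp2, Mmp13 and Timp2 changed places.

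**Figure D1:**
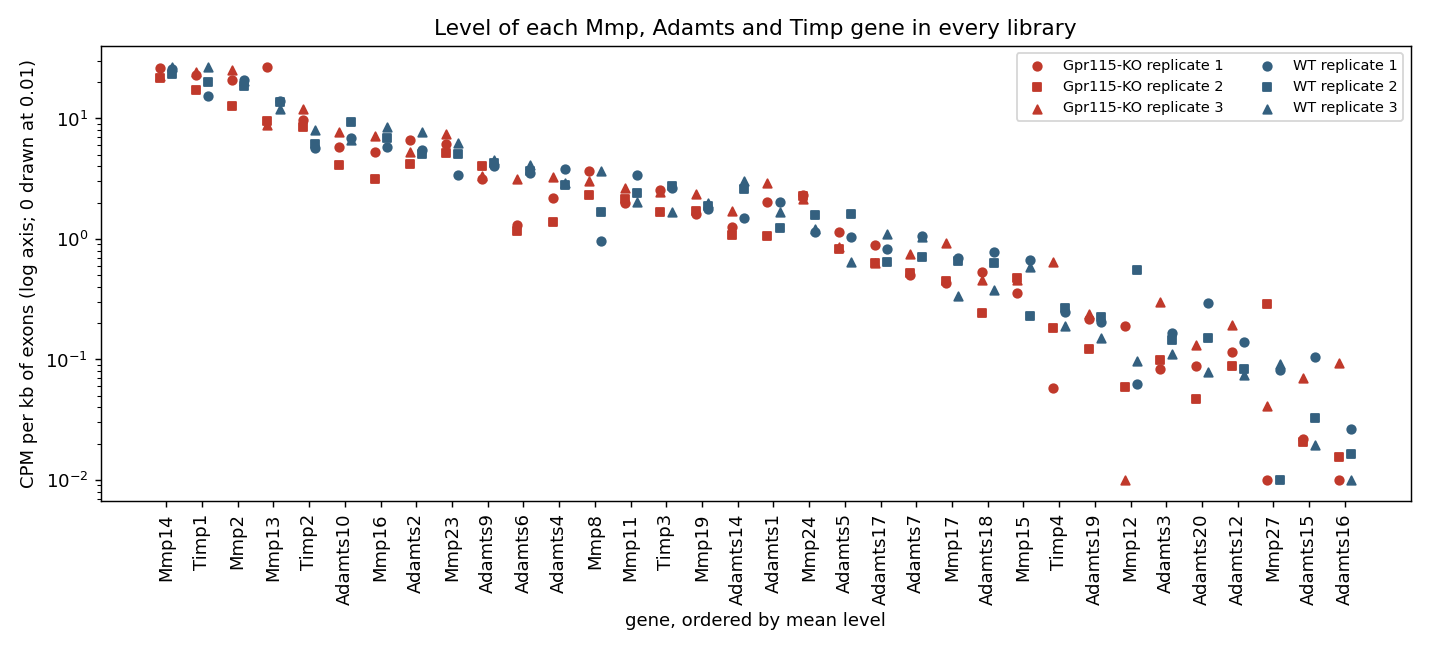
Level of each of the 34 genes in every library, as CPM per kb of exons on a log axis, with genes ordered by their mean. Red symbols are the 3 Gpr115-KO libraries and blue symbols the 3 WT libraries. Mmp14, Timp1 and Mmp2 lead at 24.4, 21.0 and 19.8 CPM per kb, and values of 0 are drawn at the bottom of the axis.

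Of the 34 genes, 29 had enough counts to be tested, and none was called different between Gpr115-KO and WT at an edgeR adjusted p under 0.05. Over all 16011 genes tested 0.15% were called, 0.0375% as higher and 0.112% as lower, so a count of 0 among 29 is close to the background. Of the 24 called genes 18 lay on chromosome 17, which holds Adgrf4 and only 1 of the 34 members. At an unadjusted p under 0.05 there were 2 higher genes, Mmp24 and Timp2, and 2 lower genes, Adamts6 and Adamts14, that is 4 of 29, where the background is 12.3% in all, 4.85% higher and 7.48% lower. DESeq2 also called none of them, with a background of 1.56%. The 3 Gpr115-KO libraries lay wholly above the 3 WT libraries in Mmp24 and Timp2 and wholly below in Adamts6 and Adamts9. That is 13.8% of the 29 genes, against 17.5% of all tested genes, 8.55% of them higher and 8.99% lower. The median log2 fold change of the 29 was −0.12, beside 0.01 over all tested genes, with 0.02 for the 11 Mmp, −0.34 for the 14 Adamts and 0.21 for the 4 Timp genes tested. Fitted values were below 0 in 5 of 11 Mmp, 12 of 14 Adamts and 1 of 4 Timp genes, beside 48.7% of all genes.

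**Figure D2:**
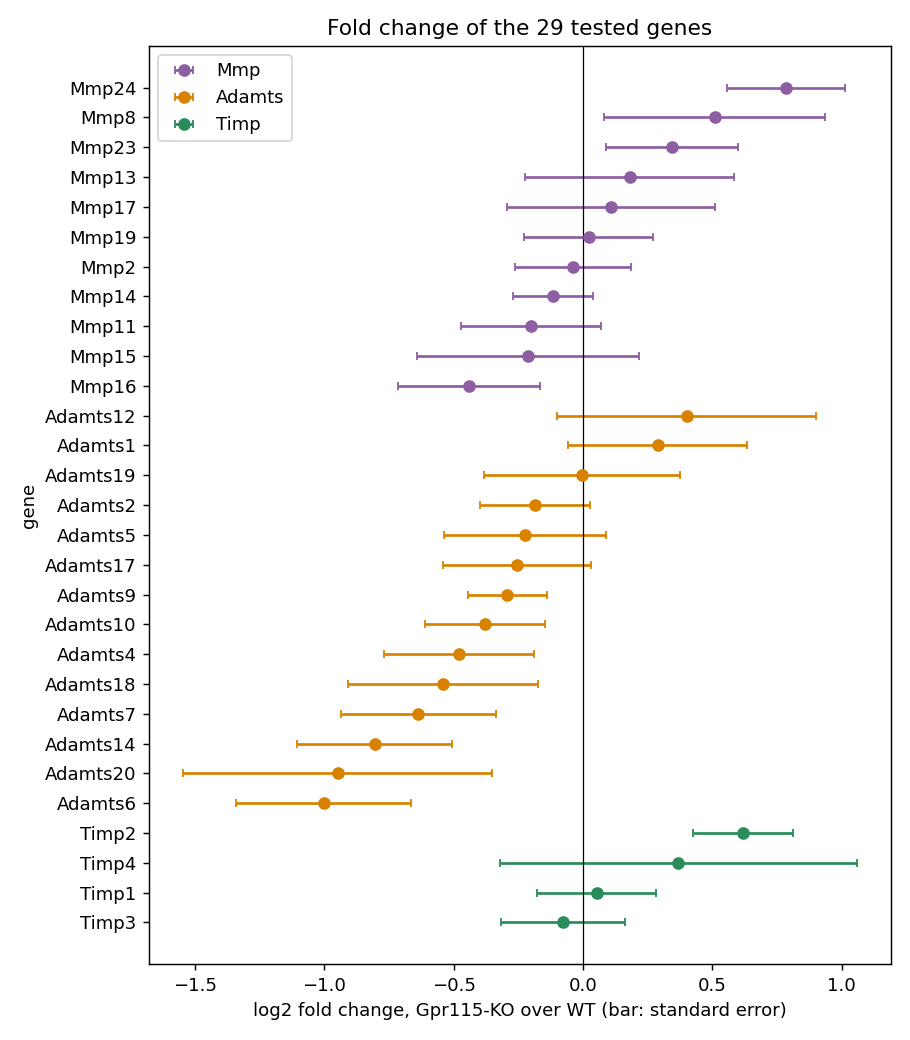
Log2 fold change of Gpr115-KO over WT for the 29 tested genes, with the standard error as a bar. Within each family genes run from the highest to the lowest value. Values span −1.003 (Adamts6) to 0.78 (Mmp24), and no gene passed the adjusted threshold.

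Among the collagenases, Mmp13 had 70.9, 25.5 and 23.7 CPM in Gpr115-KO replicates 1 to 3, against 37.4, 36.3 and 32.02 CPM in WT. Replicate 1 of Gpr115-KO lay above every WT library and the other Gpr115-KO libraries below every one. Its log2 fold change was 0.18 (SE 0.40, adjusted p = 0.891 by edgeR), and without Gpr115-KO replicate 1 it was −0.52 (adjusted p = 0.244 by edgeR). The summed level of bone-lining osteoblast markers in the same Gpr115-KO libraries was 1859, 1248 and 1958 CPM, and in WT it was 1096 to 1997 CPM. In the Gpr115-KO libraries most of this sum was Bglap, which odontoblasts also express. Of the 7 markers 5 were highest in replicate 1 among the 3 Gpr115-KO libraries, as Mmp13 was, beside 32.5% of all tested genes. Spp1, for example, had 164.5, 92.2 and 26.8 CPM in Gpr115-KO and at most 63.9 CPM in WT. Ibsp, Alpl and Sost had 336.1, 212.9 and 0.568 CPM in Gpr115-KO replicate 1. Their highest WT values were 347.9, 213.1 and 1.925 CPM. All 8 markers of keratinizing oral epithelium were also highest in replicate 1 among the 3 Gpr115-KO libraries. Their sums were 257, 43.5 and 55.9 CPM in Gpr115-KO and 42.4 to 139 CPM in WT, and Krt1 was higher still in WT replicate 1. All 7 maturation ameloblast markers had this place among the 3 Gpr115-KO libraries too, with sums of 8679, 1919 and 4966 CPM in Gpr115-KO and 6262 to 6346 CPM in WT. The sum of osteoclast markers was 63.8 to 79.3 CPM in Gpr115-KO and 48.2 to 58.4 CPM in WT. Cartilage markers summed to 300 to 390 CPM in Gpr115-KO and 271 to 522 CPM in WT, nearly all from Col11a2, with Matn1 at 0 in every library. The part of these cells in the Mmp13 values was not tested.

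Mmp8, the collagenase stored in neutrophil granules, had 8.86, 5.65 and 7.29 CPM in Gpr115-KO and 2.35, 4.08 and 8.92 CPM in WT. WT replicate 3 lay above all Gpr115-KO libraries, and the log2 fold change of 0.51 (SE 0.43) had an edgeR adjusted p of 0.668. It was 0.16 without WT replicate 1 and 1.18 without WT replicate 3. Neutrophil markers summed to 28.995 to 38.2 CPM in Gpr115-KO and 9.49 to 16.3 CPM in WT. In 5 of the 9 markers all Gpr115-KO libraries lay above all WT libraries, as they did in 8.55% of all tested genes. The part of these markers in the Mmp8 values was not tested. In WT replicate 3, where Mmp8 was highest, they summed to 12.2 CPM.

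The gelatinase Mmp2 had 69.8, 42.7 and 84.8 CPM in Gpr115-KO, spread around the WT values of 70.5, 62.9 and 69.3 CPM. Its log2 fold change was −0.04 (SE 0.22, adjusted p = 0.959 by edgeR). Mmp14, which activates it, had 156, 128 and 135 CPM in Gpr115-KO and 154, 140 and 161 CPM in WT, with overlapping groups. The log2 fold change of Mmp14 was −0.12 (SE 0.15, adjusted p = 0.802 by edgeR). These values rest on 1204 to 1705 counts a library for Mmp14 and 401 to 930 for Mmp2.

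Of the 6 membrane-anchored Mmp genes, Mmp24 had the smallest p of all members. It encodes a membrane-type protease best known from the nervous system. Mmp24 had 10.9, 10.7 and 10.03 CPM in Gpr115-KO and 5.33, 7.37 and 5.67 CPM in WT. All Gpr115-KO libraries were above all WT libraries, and the spread among the Gpr115-KO libraries (SD 0.452 CPM) was the smaller one (WT SD 1.09 CPM). Its log2 fold change was 0.78 (SE 0.23, adjusted p = 0.251 by edgeR), and leaving out single libraries moved it between 0.69 and 0.93. Schwann cell and nerve markers summed to 122 to 168 CPM in Gpr115-KO and 147 to 164 CPM in WT, and their part was not tested. Of the 4683 exonic bases of Mmp24, 637 are shared with BC029722 on the opposite strand, and without strand information reads from that stretch cannot be assigned to either gene. BC029722 itself had 15.5, 19.0 and 19.0 CPM in Gpr115-KO and 10.4, 14.3 and 13.5 CPM in WT (log2 fold change 0.49, SE 0.20).

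Mmp16, which encodes another membrane-type enzyme with collagen-degrading activity, had 45.4, 27.1 and 62.5 CPM in Gpr115-KO and 50.5, 59.8 and 73.1 CPM in WT. The first and second Gpr115-KO replicates were below the WT range and the third was within it, for a log2 fold change of −0.44 (SE 0.27, adjusted p = 0.555 by edgeR). It was −0.18 without Gpr115-KO replicate 2, −0.75 without Gpr115-KO replicate 3 and −0.29 without WT replicate 3. Mmp23, whose product carries its membrane anchor at the amino end, had 14.3, 12.04 and 17.3 CPM in Gpr115-KO and 7.96, 11.9 and 14.7 CPM in WT. The groups overlapped, with a log2 fold change of 0.34 (SE 0.26, adjusted p = 0.620 by edgeR). Mmp15 and Mmp17 were low, at means of 2.32 and 3.98 CPM in Gpr115-KO and 2.67 and 3.72 CPM in WT. The stromelysin Mmp11 and the secreted Mmp19 had log2 fold changes of −0.20 (SE 0.27) and 0.02 (SE 0.25), from means of 6.31 and 6.71 CPM in Gpr115-KO and 7.25 and 6.64 CPM in WT. Part of Mmp19 (22.3% of its exonic bases) is shared with Tmem198b on the opposite strand.

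Promoters were read for Mmp13, the tested protease with the widest range among Gpr115-KO libraries, and for the genes with non-overlapping libraries that had an entry, Mmp24, Timp2 and Adamts9. The 250 bases before each RefSeq start (build GRCm38.p6) are shown because Mmp promoters are known to differ in carrying a TATA box and a binding motif for AP-1, a factor of immediate-early signalling. Searched were TGANTCA for AP-1, TATAAA for the TATA box and TGTGGT for Runx factors, each on both strands, and matches are in capitals.
Mmp13: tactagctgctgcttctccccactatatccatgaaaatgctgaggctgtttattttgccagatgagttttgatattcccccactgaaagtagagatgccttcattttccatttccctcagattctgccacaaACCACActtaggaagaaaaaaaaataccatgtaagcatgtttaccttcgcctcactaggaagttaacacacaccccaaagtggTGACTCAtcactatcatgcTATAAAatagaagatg
Mmp24: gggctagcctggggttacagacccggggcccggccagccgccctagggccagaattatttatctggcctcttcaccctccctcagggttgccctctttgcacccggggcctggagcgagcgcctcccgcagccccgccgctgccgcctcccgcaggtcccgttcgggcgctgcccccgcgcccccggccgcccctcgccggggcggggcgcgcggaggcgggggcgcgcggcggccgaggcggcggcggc
Timp2: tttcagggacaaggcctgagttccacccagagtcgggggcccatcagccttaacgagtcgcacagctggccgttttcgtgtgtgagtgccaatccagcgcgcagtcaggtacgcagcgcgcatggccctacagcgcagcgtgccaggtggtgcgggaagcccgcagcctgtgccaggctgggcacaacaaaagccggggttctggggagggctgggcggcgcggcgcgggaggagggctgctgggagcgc
Adamts9: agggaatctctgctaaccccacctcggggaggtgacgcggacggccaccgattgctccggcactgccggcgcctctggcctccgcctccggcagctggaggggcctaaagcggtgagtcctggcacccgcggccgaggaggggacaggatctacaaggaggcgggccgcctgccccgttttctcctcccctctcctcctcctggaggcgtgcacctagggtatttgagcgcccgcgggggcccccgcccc
They lie at chr9:7272264-7272513 (plus strand) for Mmp13, chr2:155775092-155775341 (plus strand) for Mmp24, chr11:118355412-118355661 (minus strand) for Timp2 and chr6:92943535-92943784 (minus strand) for Adamts9. The Mmp13 window held all 3 motifs, and the windows of Mmp24, Timp2 and Adamts9 held none. GC content was 40.4% for Mmp13, 79.2% for Mmp24, 68.0% for Timp2 and 71.2% for Adamts9. Of the 22 members with an entry, Mmp12 and Mmp13 had the AP-1 motif, Adamts1 and Mmp13 the TATA motif, and Mmp13, Mmp14, Mmp23 and Mmp27 the Runx motif. Over 27025 genes with an entry the shares were 7.82% for AP-1, 14.3% for TATA and 15.9% for Runx. A match describes the letters of the window and is not evidence of binding.

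Among the Adamts genes, Adamts6 had the largest difference by fold of the members tested and the smallest p of its family. Its product is, with that of Adamts10, known for its link to fibrillin microfibrils. Adamts6 had 10.2, 9.06 and 24.4 CPM in Gpr115-KO, against 27.8, 28.6 and 31.9 CPM in WT. All Gpr115-KO libraries were below all WT libraries, with replicate 3 close to the WT range and replicates 1 and 2 lower than it. The means were 14.6 ± 8.56 CPM in Gpr115-KO and 29.4 ± 2.21 CPM in WT (SD, n = 3 each). The log2 fold change was −1.003 (SE 0.34, adjusted p = 0.294 by edgeR), which does not pass the threshold. Without Gpr115-KO replicate 3 it was −1.61 and passed (adjusted p = 0.0153 by edgeR). It also passed with all 6 libraries when no count filter was applied (adjusted p = 0.0347 by edgeR). Over its alternatives the adjusted p ran from 0.0153 to 0.794. Counts behind these values were 85 to 315 a library.

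Adamts10, the close relative of Adamts6, had 47.7, 33.7 and 63.8 CPM in Gpr115-KO and 57.0, 76.9 and 55.1 CPM in WT, with overlapping groups. Its log2 fold change was −0.38 (SE 0.23, adjusted p = 0.544 by edgeR), and it was −0.17 without Gpr115-KO replicate 2, −0.63 without Gpr115-KO replicate 3 and −0.21 without WT replicate 2. It is the only member on chromosome 17 (33524204 to 33553782 on GRCm38, plus strand), 9.10 Mb from Adgrf4. Of the 172 tested genes in the stretch from 30 to 40 Mb of that chromosome, 10 were called, beside 0.15% of all tested genes. On the whole chromosome 18 of 724 tested genes were called, and Adamts10 was not among them.

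The procollagen N-proteinases remove the amino-terminal propeptide of fibrillar collagens. Adamts2 had 62.4, 39.1 and 49.1 CPM in Gpr115-KO and 51.4, 47.7 and 71.8 CPM in WT. The groups overlapped, and the log2 fold change was −0.18 (SE 0.21, adjusted p = 0.768 by edgeR). Adamts14 had 6.48, 5.65 and 8.84 CPM in Gpr115-KO and 7.69, 13.6 and 15.6 CPM in WT. Only WT replicate 1 fell into the Gpr115-KO range, and the log2 fold change was −0.81 (SE 0.30, adjusted p = 0.314 by edgeR).

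The 6 proteoglycanases in the table cut versican and aggrecan. Adamts9 had 47.5, 60.4 and 49.97 CPM in Gpr115-KO and 60.7, 64.1 and 68.6 CPM in WT. Its groups did not overlap by a narrow margin, and they did overlap with DESeq2 size factors or with the length trend described below removed. The log2 fold change was −0.29 (SE 0.15, adjusted p = 0.465 by edgeR), and with that trend removed it was −0.0719 (adjusted p = 0.911 by edgeR). Adamts1, Adamts4, Adamts5 and Adamts20 had log2 fold changes of 0.29, −0.48, −0.23 and −0.95, with standard errors of 0.35, 0.29, 0.31 and 0.60. Adamts4 had 10.5, 6.71 and 15.7 CPM in Gpr115-KO and 18.3, 13.6 and 14.1 CPM in WT, so replicate 3 of Gpr115-KO stayed within the WT range there too. Among proteases tied to cartilage matrix, Adamts7 had 3.18, 3.30 and 4.74 CPM in Gpr115-KO and 6.60, 4.42 and 6.49 CPM in WT. Only Gpr115-KO replicate 3 reached the WT range, and the log2 fold change was −0.64 (SE 0.30, adjusted p = 0.421 by edgeR). Adamts12 had a log2 fold change of 0.40 (SE 0.50) from 8 to 23 counts a library. Adamts17, Adamts18 and Adamts19, for which substrates are less well known, had −0.25 (SE 0.29), −0.54 (SE 0.37) and −0.0036 (SE 0.38).

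**Figure D3:**
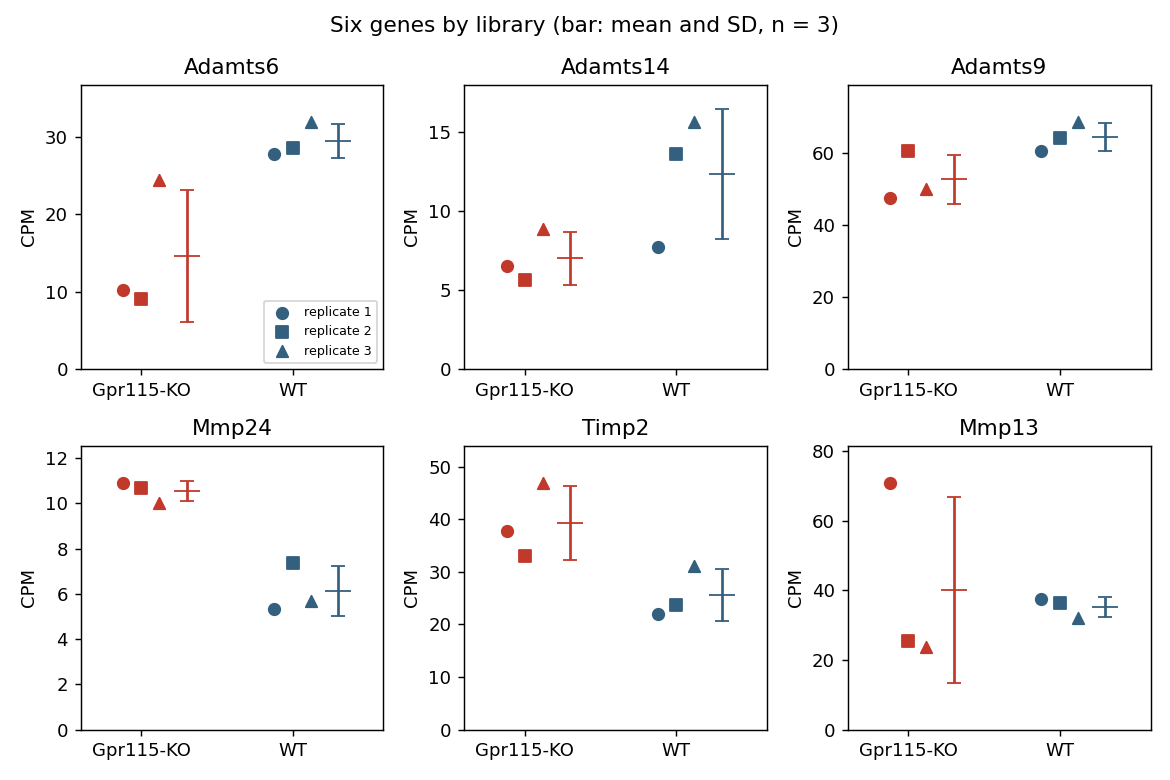
CPM in every library for Adamts6, Adamts14, Adamts9, Mmp24, Timp2 and Mmp13, with Gpr115-KO left of WT and the mean and SD (n = 3) beside the points. Adamts6 shows Gpr115-KO replicate 3 at 24.4 CPM near the WT libraries, and Mmp13 shows Gpr115-KO replicate 1 at 70.9 CPM apart from all others.

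All 4 inhibitors were tested and none was called. Timp2, which inhibits Mmp2 and also links its precursor to Mmp14 at the cell surface, had 37.8, 33.04 and 47.0 CPM in Gpr115-KO and 21.97, 23.7 and 31.2 CPM in WT. Every Gpr115-KO library was above every WT library, and the log2 fold change was 0.62 (SE 0.19, adjusted p = 0.268 by edgeR). It ran from 0.47 to 0.78 when single libraries were left out. Timp1, a secreted inhibitor encoded on the X chromosome, had 20.3, 15.2 and 21.4 CPM in Gpr115-KO and 13.7, 17.8 and 23.5 CPM in WT (log2 fold change 0.05, SE 0.23, adjusted p = 0.948 by edgeR). Timp3, the inhibitor bound to the matrix, had 20.8, 13.6 and 19.9 CPM in Gpr115-KO and 21.5, 22.2 and 13.6 CPM in WT (log2 fold change −0.08, SE 0.24, adjusted p = 0.924 by edgeR). Both of these overlapped between genotypes, and 21.3% of the exonic bases of Timp3 are shared with Syn3 on the opposite strand. Timp4 had 0.341, 1.07 and 3.83 CPM in Gpr115-KO and 1.45, 1.59 and 1.11 CPM in WT, the widest range among Gpr115-KO libraries of the tested members. These came from 3, 10 and 42 counts in Gpr115-KO and 16, 14 and 11 counts in WT, and the log2 fold change was 0.37 (SE 0.69, adjusted p = 0.867 by edgeR).

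Summed over tested genes, the Adamts family had 229, 183 and 258 CPM in Gpr115-KO and 273, 290 and 296 CPM in WT. The sum was lower in every Gpr115-KO library, also with Adamts6 left out (218, 174 and 233 CPM in Gpr115-KO, 245, 261 and 264 CPM in WT). Adamts9, Adamts10 and Adamts2 made up most of it, with WT means of 64.5, 63.0 and 57.0 CPM in a mean sum of 286 CPM. Of these, Adamts10 and Adamts2 overlapped between genotypes. Of all tested genes taken singly, 8.99% lay wholly below WT. With library totals alone as the scale the sums overlapped, at 242, 177 and 273 CPM in Gpr115-KO and 271, 290 and 274 CPM in WT. They also overlapped once the trend of each library on gene length was removed (229, 200 and 266 CPM in Gpr115-KO, 251, 273 and 294 CPM in WT). Exonic length and log2 fold change had a Spearman's rho of −0.29 over 12859 protein-coding genes, given as a description since genes are not independent replicates. Adamts genes had a median exonic length of 8254 bases, beside 4555 over these genes, and 9 of the 14 tested had 7779 bases or more. The median log2 fold change of all genes that long was −0.14. With the trend removed the Adamts median was −0.22 in place of −0.34. Mmp genes summed to 392.1, 269.5 and 365 CPM in Gpr115-KO and 352, 341 and 382 CPM in WT, and Timp genes to 79.3, 63.0 and 92.1 CPM in Gpr115-KO and 58.7, 65.3 and 69.4 CPM in WT, with overlap in both.

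**Figure D4:**
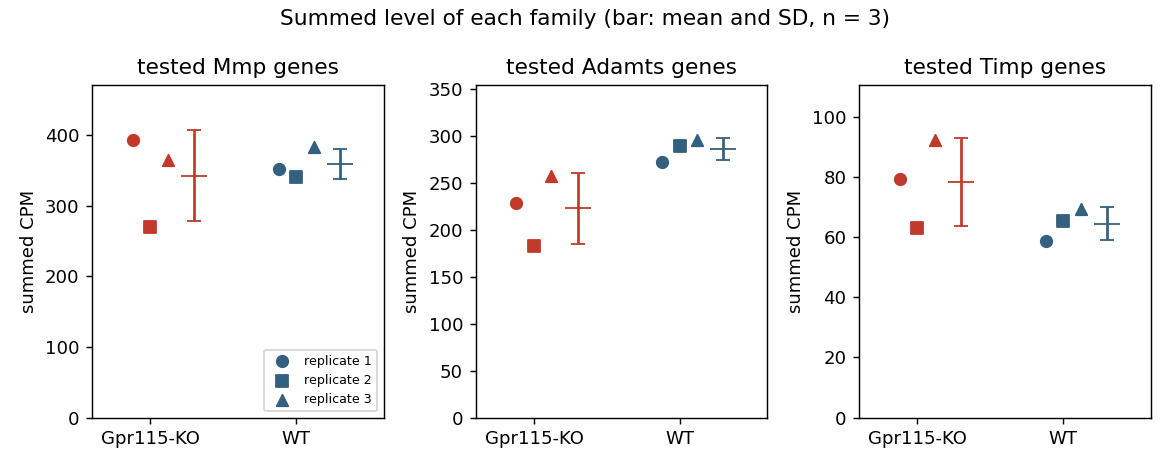
Summed CPM of the tested Mmp, Adamts and Timp genes in each library, with Gpr115-KO left of WT and the mean and SD (n = 3) beside the points. The Adamts sums are 183 to 258 CPM in Gpr115-KO and 273 to 296 CPM in WT, and the other families overlap.

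The Gpr115-KO libraries differed among themselves over these genes. Replicate 2 was the lowest of the 3 Gpr115-KO libraries in 20 of 29 genes (69.0%, beside 35.6% of all tested genes), and replicate 3 was the highest in 18 (62.1%, beside 30.9%). Replicate 2 lay below all WT libraries in 18 genes (62.1%, where the background is 34.7%) and above all of them in 2 (6.90%, background 35%). Replicate 1 was below the WT range in 10 genes and above it in 4, with backgrounds of 27.1% and 28.2%. Replicate 3 was below it in 5 genes and above it in 10, with backgrounds of 30.6% and 28.8%. The median distance to the WT mean on the log2 scale was 0.04, −0.41 and 0.03 for replicates 1 to 3. Mesenchyme markers summed to 1017, 786 and 1455 CPM in Gpr115-KO replicates 1 to 3 and 889 to 1058 CPM in WT, and endothelial markers to 65.6, 48.5 and 77.0 CPM in Gpr115-KO and 61.8 to 72.9 CPM in WT. Both sums were lowest in Gpr115-KO replicate 2 and highest in replicate 3. Odontoblast markers had the same order, with 57235, 39759 and 69332 CPM in Gpr115-KO replicates 1 to 3 and 35419 to 78755 CPM in WT. Of the 7 odontoblast markers 6 were lowest in replicate 2 and 5 highest in replicate 3. The sums of bone-lining osteoblast, cartilage, and pericyte and smooth muscle markers also had this order. Most of each sum in the Gpr115-KO libraries was 1 gene, Bglap, Col11a2 and Rgs5 in turn, and Bglap is also in the odontoblast list. Of the 7 bone-lining osteoblast markers 4 were lowest in replicate 2 and 2 highest in replicate 3. For the 8 cartilage markers these counts were 3 and 4, and for the 6 pericyte and smooth muscle markers 3 and 3. Of the 7 endothelial markers 6 were lowest in replicate 2 and 6 highest in replicate 3. Of the 8 mesenchyme markers only 4 were lowest in replicate 2, and Lum carried most of that sum, with 668, 505 and 962 CPM in Gpr115-KO replicates 1 to 3. Twist1, Barx1 and Msx1 were lowest in replicate 1, and Postn was lowest in replicate 3. Maturation ameloblast markers were 8679, 1919 and 4966 CPM in Gpr115-KO and 6262 to 6346 CPM in WT, and skeletal muscle markers 19.7, 201 and 54.5 CPM in Gpr115-KO and 31.4 to 49.0 CPM in WT. The part of tissue composition in the values of the proteases was not tested.

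**Figure D5:**
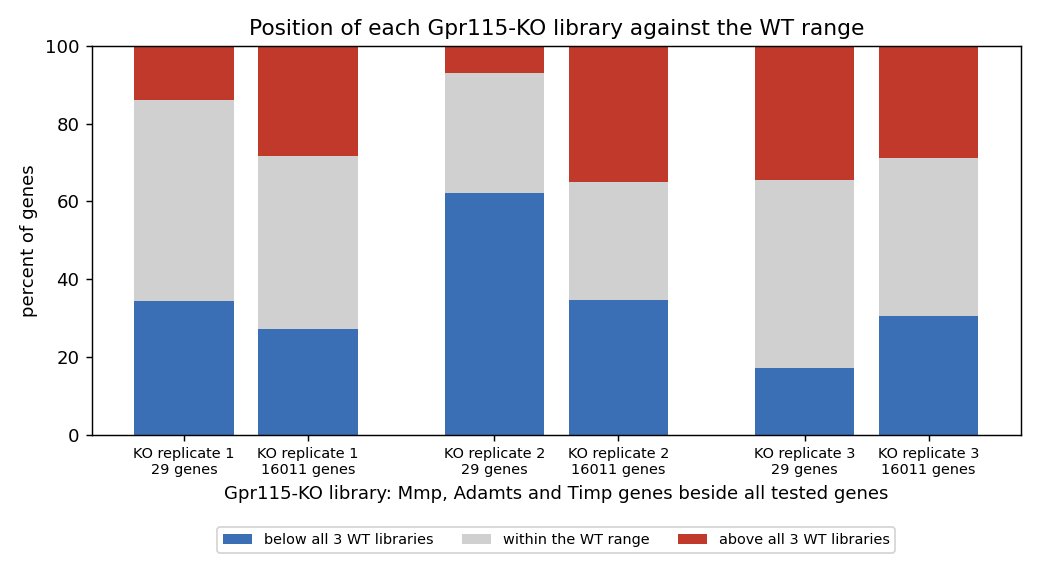
Share of genes below, within and above the range of the 3 WT libraries for each Gpr115-KO library, for the 29 Mmp, Adamts and Timp genes beside all 16011 tested genes. Gpr115-KO replicate 2 is below the WT range in 62.1% of the 29 genes and 34.7% of all genes.

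The other 5 members did not reach the count filter. Mmp12, the elastase of macrophages, had 12, 4 and 0 counts in Gpr115-KO and 5, 35 and 7 counts in WT, so 1 WT library held most of them. Macrophage markers summed to 138 to 193 CPM in Gpr115-KO and 135 to 148 CPM in WT, with the lowest WT sum in that library. Adamts3, the third procollagen N-proteinase, had 4, 5 and 18 counts in Gpr115-KO and 10, 7 and 6 in WT. Adamts15 had 2, 2 and 8 counts in Gpr115-KO and 12, 3 and 2 in WT. Mmp27 had at most 6 counts in a library and Adamts16 at most 7. At these counts no difference was detectable. Another 10 genes of these families, Mmp3, Mmp7 and Mmp25 among them, had at most 5 counts in any library and no row in the normalized table.

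Some members lie side by side in the genome. Mmp13, Mmp12, Mmp8 and Mmp27 lie in a cluster of metalloprotease genes on chromosome 9 (7272514 to 7674979 on GRCm38, 402.5 kb, with Mmp20 at its far end). Mmp13 was highest in Gpr115-KO replicate 1, Mmp8 in WT replicate 3, Mmp12 in WT replicate 2 and Mmp20 in Gpr115-KO replicate 2, at 1287 CPM. Adamts1 and Adamts5, on chromosome 16 with 53.1 kb between them, were highest in Gpr115-KO replicate 3 (15.5 CPM) and in WT replicate 2 (17.3 CPM). Mmp20 and Mmp9, which were not counted as members, had log2 fold changes of 0.39 (SE 0.23, adjusted p = 0.512 by edgeR) and 0.61 (SE 0.32, adjusted p = 0.461 by edgeR).

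Other genes of the same pathway were taken from 6 lists. Of 58 genes tested none was called, and 1 higher and 3 lower genes had an unadjusted p under 0.05, which is 6.90% beside 12.3% of all tested genes. Their median log2 fold change was 0.00105. Among activators, Bmp1, a procollagen C-proteinase, had 43.3, 48.5 and 49.8 CPM in Gpr115-KO and 28.6, 34.6 and 43.1 CPM in WT (log2 fold change 0.42, SE 0.18, adjusted p = 0.371 by edgeR). Furin, the convertase that cleaves the precursors of membrane-type Mmp and Adamts enzymes, had 256, 269 and 220 CPM in Gpr115-KO and 290, 316 and 332 CPM in WT (log2 fold change −0.33, SE 0.16, adjusted p = 0.435 by edgeR). Neither overlapped between genotypes, Bmp1 by a narrow margin, and neither passed the threshold. Of the 58 genes 2 higher and 5 lower did not overlap, which is 12.1% beside 17.5% of all tested genes. Of the other inhibitors the testicans Spock1 and Spock2 had log2 fold changes of −0.51 (SE 0.23) and 0.50 (SE 0.29). Adamtsl1 and Adamtsl2, relatives of the Adamts genes that lack the protease domain, had −1.36 (SE 0.54, adjusted p = 0.347 by edgeR) and 0.39 (SE 0.20). Adamtsl1 was low, with 1.14, 1.28 and 1.37 CPM in Gpr115-KO and 6.06, 1.47 and 2.13 CPM in WT, where replicate 1 stood apart. The sheddase genes Adam8 and Adam19 had log2 fold changes of −2.53 (SE 0.76, adjusted p = 0.268 by edgeR) and −0.82 (SE 0.28, adjusted p = 0.290 by edgeR). Adam8 had a mean of 0.812 CPM in Gpr115-KO and 4.81 CPM in WT. The next values are log2 fold changes too. Among substrates Ncan and Fbn2 had 0.69 (SE 0.45) and −0.33 (SE 0.22), and among procollagens and their enhancers Pcolce2 and Col5a1 had 0.60 (SE 0.34) and 0.21 (SE 0.20).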

How the data were processed

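RNA of first molars of 3 Gpr115-KO and 3 WT mice was sequenced with a Nextera XT kit, which does not mark strand, on a HiSeq1500, per the labels' protocols. Tools named in the submitters' processing notes are STAR 2.5.2a, limma, edgeR and DESeq2, with the build GRCm38 (mm10). For the counting step a tool was not given in the sources used here. Raw counts for 48709 genes were deposited by the authors, along with a table of normalized signal (TMM-scaled CPM, by its name and values). Each column of that table, divided by 1 factor, returned the deposited counts: 100% of values came out as whole reads within 0.01. An additional 15 transgene rows, with at most 8 counts in any library, were left out. Because the whole reads returned from the normalized table equal the counts, the count test was not repeated on them. The values of that table themselves were used in the limma-trend alternative.

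The test on counts was that of edgeR 4.0.16 (R 4.3.3): filterByExpr (minimum count 10, minimum total 15), TMM, genotype as the only term, robust quasi-likelihood F test, Benjamini-Hochberg over 16011 genes and a threshold of 0.05. Standard errors were obtained as the size of the log2 fold change over the square root of the F statistic. CPM carry no pseudocount. On simulated data of 15564 genes for this comparison log2 changes of 1 were recovered in 40.6% of genes and those of 2 in 94.7%. Of 134 calls 5 were false. The simulated counts were drawn independently for each gene, with the spread typical of its level in place of its own. Differences that many genes of a library share were absent there, so recovery and false calls in the real libraries may differ. Libraries of 1 group differed by a chi-square of 16.4 to 68 per degree of freedom, so none was a repeat of another. Intervals from counts cover counting error only.

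Exonic lengths, coordinates, overlaps and coding sequences are from GENCODE vM21 (GRCm38), and promoters from RefSeq (GRCm38.p6), where 22 of 34 members had an entry. Members were compared with all transcripts by blastn (95% identity over at least 150 bases), and the only matches were stretches shared with overlapping genes. Members and lists were chosen with earlier results of these data known. Values in every library are given for every called member (there was none), the 4 smallest p-values and 3 highest levels per length in Mmp and in Adamts, all Timp genes and the 3 widest ranges among Gpr115-KO libraries, 17 genes in all. Values given for other members were added after they were seen. Alternatives were DESeq2 1.42.0 and its size factors, library totals, other count filters, limma-voom and limma-trend (limma 3.58.1, log2 of the deposited values plus 1), no robust shrinkage, a replicate block, the length trend of each library removed by lowess, other gene lengths, and each library left out.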

Additional observations from a re-analysis of the deposited data

How the results depend on the processing

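No member was called under any alternative except Adamts6, which was called lower with no count filter (log2 fold change −1.003, edgeR adjusted p = 0.0347) and without Gpr115-KO replicate 3, so the count of lower members was 1 in each and 0 to 1 when single libraries were left out. Over all genes 6 higher and 18 lower were called. These became 135 and 365 with no count filter, 65 and 184 with DESeq2, 18 and 54 with the replicate block, and 11 lower on library totals. Leaving out single libraries gave 5 to 10 higher and 7 to 39 lower. Members without overlap between genotypes numbered 2 higher and 2 lower. There was 1 lower with DESeq2 size factors and 1 with the length trend removed. Leaving out single libraries gave 2 to 4 higher and 2 to 9 lower, but with fewer libraries more genes of any kind do not overlap: without Gpr115-KO replicate 3 the 9 lower members were 31.0%, beside 15.5% of all genes, and in the other settings the lower members were 6.90% to 17.2%, beside 11.4% to 17.1% of all genes. The median log2 fold change ran from −0.17 to 0.20 for Mmp, −0.48 to −0.20 for Adamts and −0.10 to 0.41 for Timp when single libraries were left out. The lowest Mmp and Timp values were those without Gpr115-KO replicate 3, as was the count of 9.

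Of 271 values for 17 named genes under 16 alternatives, 18 changed sign, in 6 genes. Mmp13 was −0.0208 with limma-voom, −0.0076 with limma-trend and −0.52 to 0.45 with single libraries left out. Without single libraries Mmp23 ran from 0.13 to 0.56 and Mmp14 from −0.20 to −0.06, with no change of sign. Mmp2 was 0.0568 on library totals and −0.27 to 0.20 without single libraries, and Adamts2 was −0.37 to 0.0164 without them. Timp1 was −0.12 with the length trend removed and −0.12 to 0.27 without single libraries. Timp3 was 0.0033 on library totals, 0.0287 with the length trend removed and −0.27 to 0.0913 without single libraries. Timp4 was −0.15 with limma-voom, −0.0012 with limma-trend, −0.0377 with the replicate block and −0.95 to 0.84 without single libraries. The cause was not tested. The place of Timp1 in the order of levels was 3 with the longest transcript and 4 with coding length in place of 2. Mmp2 was 2 in place of 3 with the longest transcript, Mmp13 was 7 in place of 4 with coding length, and Timp2 was 8 and 2 in place of 5.

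The labels give same-numbered libraries a common number and no statement of pairing. Their deviations from the group means correlated at 0.27, 0.034 and −0.072 across genes, and only number 1 correlated best with its own. With 3 libraries a group these values cannot show whether such libraries share a litter or batch. Members with few counts, such as Timp4, Adamts12 and Adamts20, have standard errors of 0.50 to 0.69. Even among better covered genes log2 differences near 1 (Adamts6, SE 0.34) did not pass, so differences of that size can go undetected here.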
